A study of Homo sapiens with 30 samples.

Results

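The comparison is of untreated HCT116 cells with and without p53. HCT116 is an established human line from a colon adenocarcinoma. The wild-type cells (WT) and the cells without p53 (p53KO) are isogenic, and the sources used here do not say how many knockout clones were grown. The members are the 6 arrays labelled untreated, 3 for each genotype, of 30 arrays in the series, and they were chosen by their labels and paired by replicate number. Both genotypes were grown in McCoy medium with serum, antibiotics and L-glutamine and were seeded overnight. The other 24 arrays hold the same 2 genotypes after 16 hours in 1, 10 or 100 nM actinomycin D, a DNA-binding inhibitor of transcription, or in 4 µM nutlin-3, an inhibitor of the p53 antagonist MDM2. Nothing in the labels ties the replicates to independent cultures. The p-values therefore speak only to variation among these arrays, part or all of it perhaps technical.

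p53 is a transcription factor that binds a response element in DNA and raises transcription of genes for cell cycle arrest, apoptosis, DNA repair and metabolism. In unstressed cells MDM2 keeps its level low, and the part of the p53 programme that remains is called basal. Through the inhibitor p21, the product of CDKN1A, p53 also lowers genes of the cell cycle.

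Total RNA was hybridised to Illumina bead arrays, on which beads carrying a probe report its signal. Raw 75th percentiles were 259.9 ± 17.2 intensity units (SD, n = 3) in WT and 221.3 ± 28.3 in p53KO (exact permutation test, two-sided, p = 0.2, where 0.1 is the smallest that 3 against 3 allow). The arrays detected 12120 to 12547 probes at a detection p under 0.01. No 2 of the 6 arrays held an identical raw value for any probe, and correlations of log2 levels were 0.965 to 0.997 within a genotype and 0.947 to 0.987 between genotypes. Number 1 of both genotypes lay on slide 2, and numbers 2 and 3 of both lay on slide 4. In the treated arrays the number 2 arrays at 10 and 100 nM and the number 3 arrays with nutlin lay on different slides in the 2 genotypes, so those pairs also compare slides. The targeted gene is not analysed here, so it gives no check of the genotype labels. Of 36 colon epithelial markers on the array, 17 were detected on all 6 arrays, among them EPCAM at a mean log2 level of 11.88 in WT and 11.83 in p53KO and KRT18 at 13.47 and 13.39, while 13, such as VIL1, CDH17 and CEACAM5, were detected on no array. Of 28 markers of other cell types, 5 were detected on all 6 arrays (ACTA2, CD68, COL1A1, HBA1 and INS) and 17 on no array, including CD3D, CD3E, PECAM1 and VWF, and PTPRC was detected on 1 array of each genotype.

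WT and p53KO cells differed in 1127 of 10666 genes tested (10.6%), 674 higher (6.32%) and 453 lower (4.25%) in WT, at a limma adjusted p under 0.05 in a fit that compared the arrays within pairs. The median size of the called differences was 0.595 on the log2 scale. At least 2-fold differences were called in 160 genes (1.5%), 111 higher and 49 lower. In 798 of the called genes the 3 WT values did not overlap the 3 p53KO values, against 19.5% of all genes with no overlap. In 47 called genes no p53KO array detected the probe, and in 12 no WT array did, and those genes passed the detection filter through 1 genotype. The number of calls rested on a block for replicate number or slide: the same 6 arrays without a block gave 133 calls, all among the 1127. Slide in place of replicate number gave 1355 calls as a fixed block and 1007 as a random block. Of these, 1072 and 915 were among the 1127. With all 30 arrays in 1 fit and the replicate block, 34 genes were called. Without the nutlin arrays that fit called 1691, of which 1027 were among the 1127. Leaving out number 1, 2 or 3 gave 811, 806 and 930 calls, of which 703, 686 and 720 were among the 1127 (62.4%, 60.9% and 63.9%). Numbers 2 and 3 alone, the fit without number 1, are the comparison within slide 4, and slide 2 held 1 array of each genotype and gave no test.

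**Figure D1:**
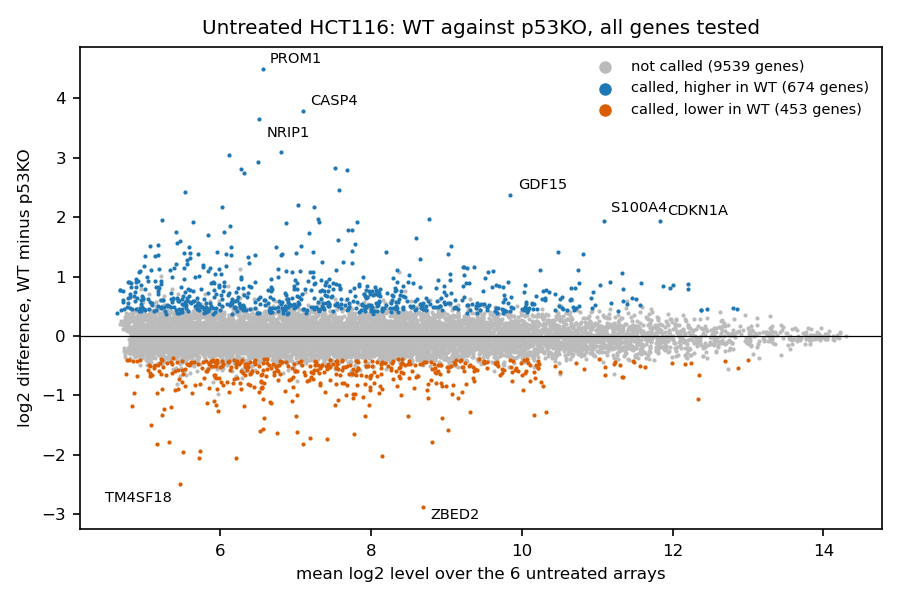
Each point is 1 of 10666 genes, with the mean log2 level over the 6 untreated arrays on the horizontal axis and the log2 difference, WT minus p53KO, on the vertical axis. Blue points are the 674 genes called higher in WT and orange points the 453 called lower, and PROM1 at 4.50 and ZBED2 at -2.88 lie at the ends.

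The genes named first are the 12 with the highest and the 12 with the lowest difference among called genes whose groups did not overlap. Their lack of overlap is thus fixed by the choice, and their p-values come from the values that chose them. Those not detected in 1 genotype passed the detection filter only through the other. None of the 12 highest was in the lists of p53 targets. PROM1 on chromosome 4, which encodes the membrane glycoprotein CD133, had log2 levels of 8.95, 8.80 and 8.68 in WT and of 4.30, 4.39 and 4.26 in p53KO, where no array detected it. The 2 genotypes stood far apart, with a lower bound on the difference of at least 16.4-fold (adjusted p = 6.49e-06). CASP4 on chromosome 11, an inflammatory caspase, read 9.85, 8.35 and 8.77 in WT and 5.93, 4.62 and 5.06 in p53KO. Its difference was 3.79 ± 0.10 (log2, SE, adjusted p = 9.01e-06), while its other probes gave 0.92, 0.39 and -0.01. Of those 3 probes the first was detected on all WT arrays and no p53KO array and the last on none, so the size for CASP4 depends on the probe.

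NRIP1 on chromosome 21, a corepressor of nuclear receptors, read 8.08, 8.34 and 8.65 in WT and 4.70, 4.68 and 4.71, not detected, in p53KO. The bound was at least 11.9-fold (adjusted p = 3.14e-05). EHF on chromosome 11, an epithelial transcription factor of the ETS family, read 7.36, 7.41 and 8.16 in WT and 4.55, 4.62 and 4.60, not detected, in p53KO, at least 7.30-fold higher (adjusted p = 0.000187). ADGRF1, an adhesion G protein-coupled receptor, was higher by 3.09 ± 0.11, with 2.36 and 0.57 from its other probes. The remaining genes among the 12 highest were DDIT4L (2.93), a relative of the mTOR inhibitor DDIT4, RGS2 (2.83), a regulator of G protein signalling, ODAD2 (2.81), a dynein docking protein, and DPYSL3 (2.79), a cytoskeletal phosphoprotein. SLC1A3, a glutamate transporter, differed by 2.75, MKX, a homeobox factor, by 2.46 and DIAPH2, a formin, by 2.43 with a bound of at least 3.94-fold.

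Among the genes lower in WT, ZBED2 on chromosome 3, a zinc finger gene, read 7.08, 7.52 and 7.14 in WT and 9.13, 10.76 and 10.49 in p53KO. The difference was -2.88 ± 0.24 (adjusted p = 0.00108). TM4SF18, a tetraspanin-like membrane protein, read 4.22, 4.25 and 4.22 in WT, not detected, and 5.78, 6.91 and 7.46 in p53KO, and was at least 3.91-fold lower in WT (adjusted p = 0.00315). WNT16 on chromosome 7, a secreted Wnt ligand, read 4.73, 4.65 and 4.69, not detected, against 6.58, 6.81 and 6.82, at least 3.97-fold lower (adjusted p = 0.000167). TM4SF18 and WNT16 passed the detection filter only through p53KO, and the lack of overlap in all 3 genes was a condition of their choice. DNER, a Notch-binding membrane protein, differed by -1.93 ± 0.09, SGK1, a kinase induced by serum and glucocorticoids, by -1.82 ± 0.12 and NECTIN3, a cell adhesion protein, by -1.78 ± 0.12. STXBP6, a SNARE-binding protein, was at least 2.50-fold lower. GAGE12J, a cancer-testis antigen of a multi-copy family whose copies the probes may not tell apart, was at least 2.76-fold lower, with 4 further probes at -1.52 to -1.70. TIMM17B, a subunit of the mitochondrial import channel, CHPT1, which makes phosphatidylcholine, and the growth factor FGF9 differed by -1.73, -1.65 and -1.63.

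**Figure D2:**
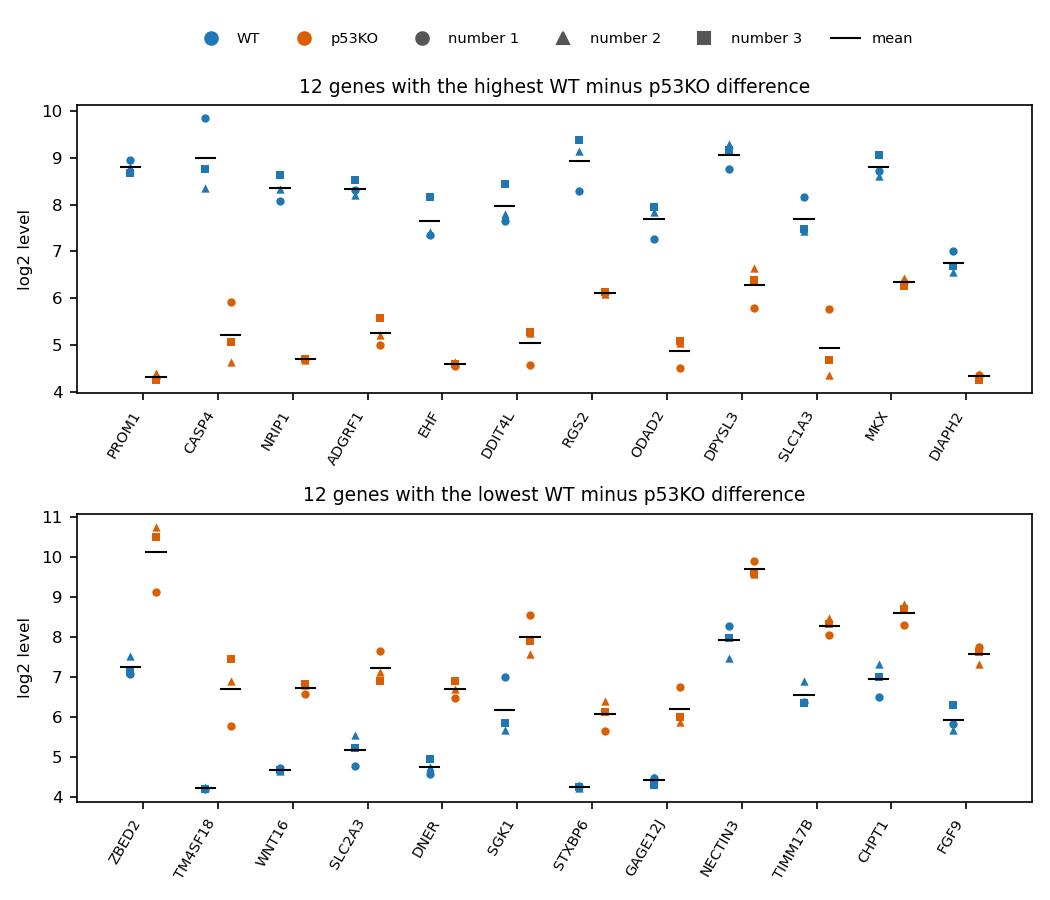
Log2 levels on the 6 untreated arrays for the 12 genes with the highest (top) and the 12 with the lowest (bottom) WT minus p53KO difference, where colour marks the genotype, the marker shape the replicate number and the bar the mean of 3. The genes were chosen among called genes with no overlap, which leaves out CCN2 at -1.71, and the WT points lie above the p53KO points in the top panel and below them in the bottom panel.

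The known targets of p53 were then taken from 3 lists, for arrest and feedback, for apoptosis, and for repair and metabolism, which together held 104 tested genes. Of these, 27 (26%) were called higher, against 6.32% of all genes, and 5 (4.81%) lower, near the 4.25% of all genes. The median difference was 0.26 against -0.02 over all genes. CDKN1A on chromosome 6 read 13.91, 12.27 and 12.22 in WT and 11.69, 10.36 and 10.53 in p53KO. Array number 1 was the highest of each genotype, and within each pair WT was higher. The difference was 1.94 ± 0.12 (adjusted p = 0.0004), or 2.37 by a second probe that was detected on 3 WT arrays and 1 p53KO array.

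Of 23 arrest and feedback genes, 6 were called higher (26.1%, against 6.32% of all genes) and 3 lower (13%, against 4.25%). The median was 0.30, or 0.11 without number 1. TP53INP1, a p53-induced nuclear stress protein, read 9.60, 7.62 and 7.77 in WT and 6.41, 5.99 and 6.09 in p53KO, a difference of 2.17 ± 0.29 (adjusted p = 0.00586). PHLDA3, an inhibitor of AKT, differed by 1.51 ± 0.29 and by 1.01 without number 1. SESN1, a sestrin that curbs mTORC1, differed by 1.51 ± 0.25. PLK3, a polo-like kinase, at 0.55 (adjusted p = 0.125) and ZMAT3, an RNA-binding target of p53, at 0.46 (adjusted p = 0.409) did not pass. In ZMAT3 the 3 WT values, 8.81, 6.45 and 8.07, lay on both sides of the p53KO values, 7.50, 7.18 and 7.25. The 3 genes lower in WT were the transcription factor KLF4 at -0.83 and, named after their values were seen, the kinase PLK2 at -0.72 and the phosphatase PTP4A1 at -1.03. MDM2, the main antagonist and a target of p53, was not among the genes tested: its brightest probe read 6.15, 4.50 and 4.86 in WT and 5.82, 4.54 and 4.73 in p53KO, and it was detected on 3 of the 6 arrays.

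In the apoptosis list 3 of 22 genes were called higher (13.6%, against 6.32% of all genes) and 0 lower, with a median of 0.11. The genes called higher were 2, 3 and 5 without number 1, 2 and 3. TP53I3, an oxidoreductase also called PIG3, read 9.18, 7.68 and 7.95 in WT and 6.09, 6.44 and 6.52 in p53KO, a difference of 1.92 ± 0.33 (adjusted p = 0.0147). FAS, a death receptor, differed by 0.80 ± 0.20 (adjusted p = 0.0459), at least 1.55-fold since no p53KO array detected it, and TNFRSF10B, the death receptor DR5, by 0.55 ± 0.13 (adjusted p = 0.0413). FAS and TNFRSF10B passed without number 3 but not without number 1 or 2, when FAS gave adjusted p of 0.135 and 0.0682 and TNFRSF10B 0.101 and 0.0803. BAX, a pore-forming effector of apoptosis, read 6.68, 6.54 and 6.59 in WT and 6.37, 6.42 and 6.50 in p53KO. Its values did not overlap, but the difference of 0.17 ± 0.10 did not pass (adjusted p = 0.306). DRAM1, a lysosomal protein, at 1.08 (adjusted p = 0.0535) and PIDD1, a death domain protein, at 0.61 (adjusted p = 0.058) lay just past the threshold. In the wider BCL2 family of 15 tested genes, 0 were called by limma and 3 had an unadjusted p under 0.05, and MCL1, an anti-apoptotic member, had 2 probes of opposite sign at -0.31 and 0.10.

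Of 60 repair and metabolism targets 18 were called higher (30%, against 6.32% of all genes) and 2 lower (3.33%, against 4.25%). The median was 0.29, or 0.15 without number 1. GDF15, a secreted stress cytokine on chromosome 19, read 12.70, 10.27 and 10.15 in WT and 9.46, 8.15 and 8.38 in p53KO. The lowest WT value was above the highest p53KO value, and the difference was 2.37 ± 0.25 (adjusted p = 0.00268). DDB2, which recognises ultraviolet damage, read 8.11, 7.80 and 7.20 against 6.29, 6.36 and 6.28, a difference of 1.40 ± 0.17 (adjusted p = 0.00413). CYFIP2, a WAVE complex subunit, differed by 1.39 ± 0.18 and RRM2B, the p53-inducible ribonucleotide reductase subunit, by 0.82 ± 0.14. APOBEC3H, a cytidine deaminase, differed by 1.53 ± 0.31, at least 2.25-fold with no p53KO array detecting it, and by 0.98 without number 1. DGKA, a diacylglycerol kinase, at 0.62 (adjusted p = 0.0742) and KANK3 at 0.54 (adjusted p = 0.0825) did not pass. TIGAR, a fructose bisphosphatase, read 8.36, 7.44 and 7.63 in WT and 8.05, 7.91 and 7.87 in p53KO, and the difference of -0.13 ± 0.15 did not pass (adjusted p = 0.609) and took the other sign, 0.03, without number 2. The 2 genes lower in WT, named after their values were seen, were THBS1, a matrix glycoprotein, at -0.87 and the angiogenic factor PGF at -0.41.

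The promoters of the p53 targets were searched for the consensus p53 response element, 2 decamers of 10 bases with no base between them, allowing 3 mismatches outside the fixed C and G of each decamer, a number chosen after match counts were seen. The element reads the same on both strands. The window ran from 250 bases before to 50 after each gene's start (RefSeq, GRCh38.p14). It held a match in 288 of 27305 promoters (1.05%), in 93 of 8353 tested genes with a promoter in the table (1.11%), in 10 of 510 genes called higher in WT (1.96%) and in 1 of 340 called lower (0.294%). A match was found in 6 of 89 p53 targets with a promoter in the table (6.74%), and of the 19 called higher 2 did (10.5%). The targets were listed because p53 is known to act on them, so that share is a description. The lines below show the match in capitals with up to 5 bases on each side. They cover 3 genes called higher in WT, GDF15, RPS27L and ACTA2, the last of which is not in the p53 lists. They also cover 2 p53 targets with a match that were not called, AEN and PMAIP1. The other uncalled targets with a match, ABHD4 (0.30, limma adjusted p = 0.143) and TGFA (-0.28, adjusted p = 0.194), are not shown. The lines are thus examples and no comparison of sites. RPS27L, AEN, PMAIP1, ABHD4 and TGFA were named for their match.
GDF15: tgcacAGCCATGCCCGGGCAAGAACtc
ACTA2: tggctTGGCTTGTCAGGGCTTGTCCaggag
RPS27L: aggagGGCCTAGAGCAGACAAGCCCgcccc
AEN: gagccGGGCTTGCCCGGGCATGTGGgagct
PMAIP1: gtcggGAGCGTGTCCGGGCAGGTCGcgctc

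The printed stretch for GDF15 lies at chr19:18386181-18386207 on the plus strand, with the match starting at base 29 of the gene and 3 mismatches. That for ACTA2, smooth muscle actin, lies at chr10:88991304-88991333 on the minus strand and starts at base 10 with 2 mismatches. For RPS27L, a ribosomal protein-like target of p53, the stretch lies at chr15:63157522-63157551 on the minus strand. Its match begins 69 bases before the gene's start. For AEN, an exonuclease, the stretch lies at chr15:88621301-88621330 on the plus strand, and the match begins 34 bases before the start. For PMAIP1, the BH3-only protein NOXA, the stretch lies at chr18:59899806-59899835 on the plus strand, and the match begins 185 bases before the start. ACTA2 differed by 2.21 ± 0.19 (adjusted p = 0.00125) and RPS27L by 0.87 ± 0.14 (adjusted p = 0.0123). AEN, with 2 mismatches, read 11.53, 10.07 and 9.91 in WT and 11.25, 10.28 and 9.99 in p53KO and differed by less than 0.01. PMAIP1 read 7.35, 6.90 and 6.88 against 7.77, 6.71 and 6.87, a difference of -0.07 (adjusted p = 0.756). A match is a run of letters, not a measured binding site, and the windows of CDKN1A and DDB2, both called, held none.

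The same contrast was measured again in the drug-treated arrays, which share no array with the untreated ones. Of the 27 p53 targets called higher in untreated WT cells, all 27 were called higher at 10 nM actinomycin D, where 22.1% of all genes were, and 51 targets not called untreated were called higher there. PGF, called lower in untreated WT cells (-0.41), was called higher at 10 nM (1.51). In all, 74 of 104 targets were called higher at 1 nM (17.2% of all genes), 79 at 10 nM and 13 at 100 nM (1.23%). The 13 at 100 nM became 7, 0 and 6 without number 1, 2 and 3. The median difference of the 104 targets was 0.26 untreated, 0.99 at 1 nM, 1.12 at 10 nM and 0.27 at 100 nM. CDKN1A differed by 3.48 at 1 nM, 3.36 at 10 nM and 1.18 at 100 nM against 1.94 untreated, and GDF15 by 4.36, 4.62 and 2.24 against 2.37.

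Whether the genotype difference itself differed between treated and untreated cells was tested as an interaction on 24 arrays, without nutlin. The untreated arrays, listed at 0 hours, lay on slides 2 and 4, and these treated arrays, at 16 hours, on slides 1, 3 and 5. Drug, hours and slide cannot be told apart in this contrast. At 10 nM the genotype difference was called larger in 60 of the 104 targets and smaller in 1, against 3.91% and 5.15% of all genes. TIGAR and BAX, not called untreated, differed by 1.53 and 0.65 at 10 nM, and the change was called for TIGAR (1.66 ± 0.20, adjusted p = 0.00165) but not for BAX (0.48 ± 0.15, adjusted p = 0.0716). At 1 nM it was called for both, at 1.57 ± 0.20 for TIGAR (adjusted p = 0.00346) and 0.60 ± 0.15 for BAX (adjusted p = 0.0433). These interaction calls rest on all 3 numbers: for the 104 targets at 10 nM the 60 became 56, 8 and 5 without number 1, 2 and 3, while the change was positive in 92 to 96 of the 104 in every one of these fits. At 1 nM the change was called larger in 42 targets and smaller in 0, against 2.18% and 2.53% of all genes, and the 42 became 51, 0 and 0, and over all genes limma then called 616, 1 and 0, with 2020, 1279 and 1396 at an unadjusted p under 0.05.

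**Figure D3:**
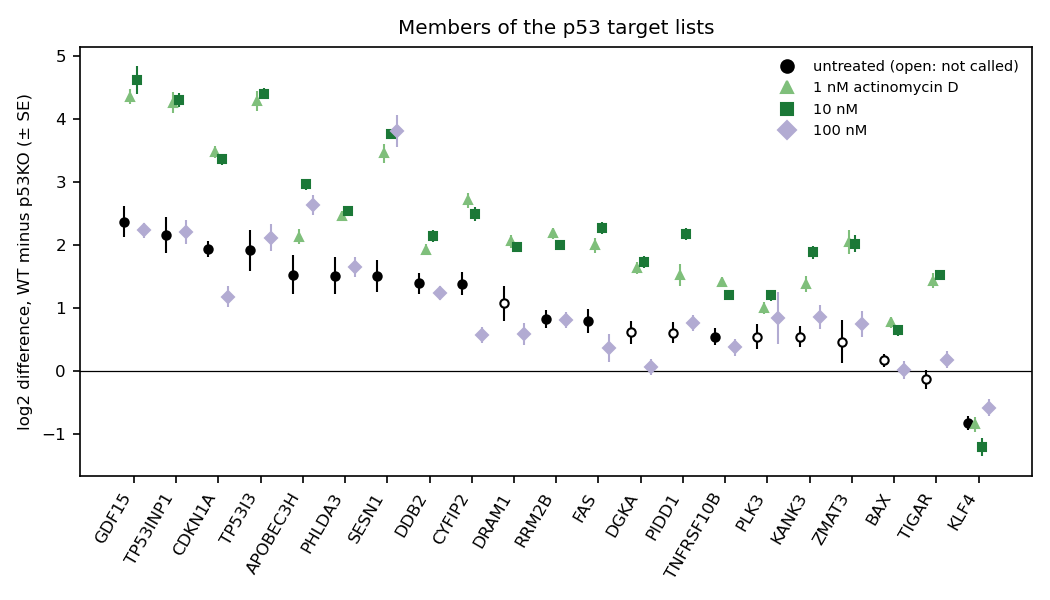
Log2 difference, WT minus p53KO, with its SE for 21 named members of the p53 lists in untreated cells (black, open where not called) and in 1, 10 and 100 nM actinomycin D. The untreated differences run from 2.37 in GDF15 to -0.83 in KLF4, and those at 1 and 10 nM are larger in 20 of the genes, all but KLF4.

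In the list for mitosis and G2/M 8 of 39 genes were called lower in untreated WT cells (20.5%, against 4.25% of all genes) and 0 higher, with a median of -0.23. CCNB1, cyclin B1, read 8.01, 9.35 and 9.25 in WT and 8.91, 9.93 and 10.17 in p53KO, a difference of -0.80 ± 0.11 (adjusted p = 0.00658). Both genotypes were lowest on array number 1, and WT was below p53KO in each pair. The kinases NEK2 and AURKA differed by -0.65 and -0.55 and ECT2, which drives cytokinesis, by -0.54. These 3 calls need most of the arrays: NEK2 was lost without number 1 (adjusted p = 0.0628), AURKA without number 1 or 3 (0.0811 and 0.0545) and ECT2 without number 1 or 2 (0.102 and 0.114). Without number 1, 2 or 3 the list had 1, 7 and 4 members called lower and a median of -0.24, -0.29 and -0.26. The master kinases PLK1 at -0.54 (adjusted p = 0.103) and CDK1 at -0.24 (adjusted p = 0.178) did not pass.

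Of 49 DNA replication genes, 2 were called higher in WT (4.08%, below the 6.32% of all genes) and 0 lower, with a median of 0.06, so calls in the list were no more frequent than over all genes. TK1, thymidine kinase, read 11.88, 11.92 and 11.69 in WT and 11.21, 11.40 and 11.32 in p53KO, a difference of 0.52 ± 0.10 (adjusted p = 0.025), and MCM5, a subunit of the replicative helicase, differed by 0.48 ± 0.11 (adjusted p = 0.0423). TK1 was lost without number 1 or 2 (adjusted p = 0.0589 and 0.0587), and MCM5 without any of the 3 numbers (0.0535, 0.161 and 0.0653). With 1 and 10 nM actinomycin D the genotype contrast of both lists was negative: 38 of 39 mitotic genes were called lower in WT at each dose, and 41 and 45 of 49 replication genes, where 16.5% and 22.7% of all genes were. The change from untreated cells was called for MCM5 (-1.49 ± 0.23 at 10 nM, adjusted p = 0.00391) and for CCNB1 (-1.25 ± 0.30, adjusted p = 0.022). Over the lists, 41 of 49 replication and 33 of 39 mitotic genes had a called change at 10 nM, all negative, against 5.15% of all genes. Without number 1, 2 and 3 only 35, 2 and 1 replication genes and 32, 0 and 0 mitotic genes did. Without number 3 the genes lower at 1 nM were 2 mitotic and 9 replication genes.

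Interferon-response and antigen presentation genes formed the list with the highest share of calls. Of 35 tested, 17 were called higher in WT (48.6%, against 6.32% of all genes) and 0 lower. The median was 0.41, and 17 of the other 18 were also above 0. IFI35 on chromosome 17, an interferon-induced protein, read 8.31, 7.94 and 7.89 in WT and 6.23, 6.40 and 6.30 in p53KO, with no overlap and a difference of 1.74 ± 0.13 (adjusted p = 0.000748). HLA-E, a non-classical class I molecule, read 10.05, 9.63 and 9.72 against 8.97, 8.41 and 8.55, a difference of 1.16 ± 0.10 (adjusted p = 0.00108). UBE2L6, the ISG15-conjugating enzyme, differed by 1.16 ± 0.14, and 0.97 by a second probe. HERC5, the ISG15 ligase, differed by 1.29 ± 0.32 (adjusted p = 0.0457) and by 0.72 without number 1. The median of the list was 0.57, 0.41 and 0.35 in pairs 1, 2 and 3, and 14, 13 and 15 genes were called without number 1, 2 and 3.

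Of the 17 genes, 14 were called higher in WT at 1 nM, 14 at 10 nM and 14 with nutlin without its number 3. Of all genes, 17.2%, 22.1% and 11.6% were called higher in these states. At 100 nM, where few genes were called at all, 16 of the 17 were above 0 but only IFI35 was called, and no gene of the list was called there without any 1 of the numbers. The genotype difference at 10 nM was called larger than in untreated cells in 1 and smaller in 2 of them, against 3.91% and 5.15% of all genes. IFI35 was 1 of the 2 with a smaller difference (-0.66 ± 0.19, adjusted p = 0.0443). Over the whole list such changes were called in 2 genes each way, and in 1 larger and 0 smaller without number 1 and in 0 without number 2 or 3. Of 13 NF-kB and inflammatory genes 2 were called, both higher (15.4%, against 6.32% of all genes): CASP4 and LCN2, an iron-binding acute phase protein. LCN2 read 9.20, 6.60 and 9.05 in WT and 8.25, 4.75 and 5.96 in p53KO, groups that overlap although WT was higher in each pair (1.96 ± 0.34, adjusted p = 0.0155).

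**Figure D4:**
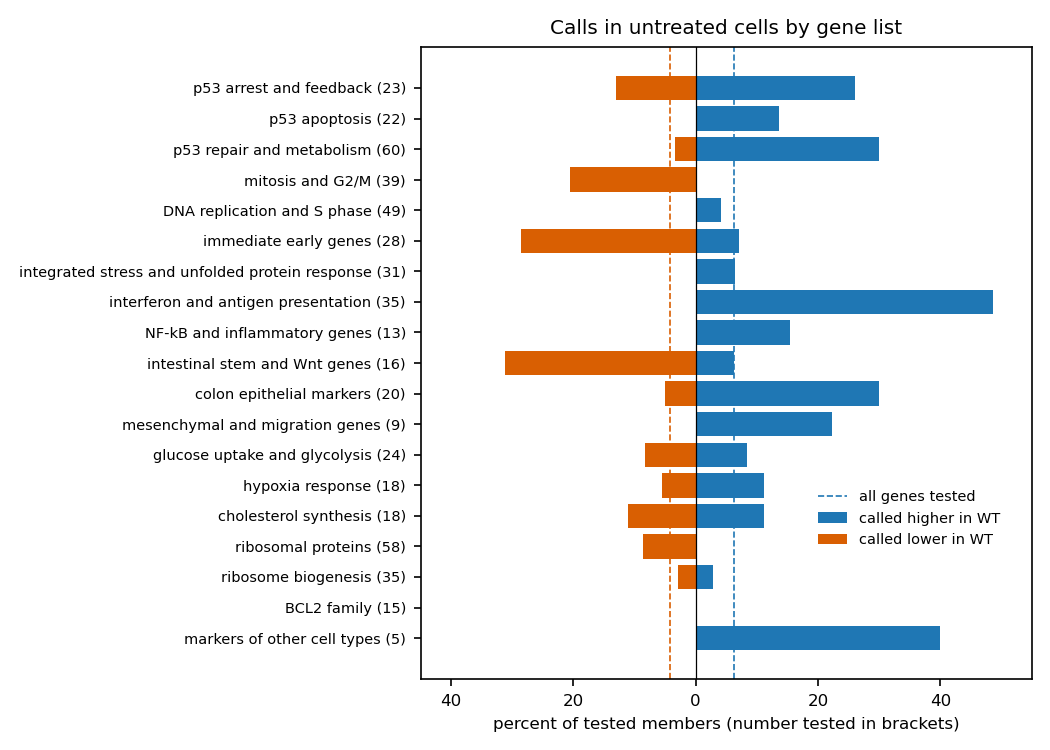
Percent of the tested members of each of 19 gene lists called higher in WT (blue, to the right) or lower (orange, to the left) in untreated cells, with the number tested in brackets. Dashed lines mark the shares over all genes, 6.32% and 4.25%, and the interferon list reaches furthest right with 17 of 35.

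Immediate early genes respond to growth factors and stress within minutes. Of 28 tested, 8 were called lower in WT (28.6%, against 4.25% of all genes) and 2 higher (7.14%, near the 6.32% of all genes). CCN2, a matricellular protein also called CTGF, read 8.28, 5.62 and 5.12 in WT and 10.29, 7.14 and 6.73 in p53KO. Array number 1 lay far above the others in both genotypes, so the groups overlap, while the difference within pairs was -1.71 ± 0.12 (adjusted p = 0.000607). KLF4 differed by -0.83 ± 0.11, KLF6, a related factor, by -0.78 ± 0.19 and HBEGF, an EGF receptor ligand, by -0.78 ± 0.19. KLF6 was lost without number 1 or 2 (adjusted p = 0.123 and 0.0628), and HBEGF was -0.47 without number 1. The 2 genes higher in WT, IER5 and JUND, were named after their values were seen, at 0.51 and 0.44.

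The first arrays of both genotypes stood apart in this list. FOS read 9.66, 8.28 and 7.62 in WT and 11.11, 7.57 and 7.29 in p53KO, and its difference was -0.14 (adjusted p = 0.843) and took the other sign, 0.52, without number 1. EGR1 read 10.55, 10.15 and 9.49 against 11.36, 10.00 and 9.65 (adjusted p = 0.347). DDIT3, the stress factor CHOP, read 10.48, 7.92 and 7.31 against 10.08, 8.55 and 8.15 (adjusted p = 0.339). The median of the list was -0.58, -0.09 and -0.17 in pairs 1, 2 and 3, and without number 1 it was -0.14, with 4 genes called lower and 0 higher. Without number 2 there were 5 lower and 0 higher. MYC was 0.35 higher in WT and did not pass (adjusted p = 0.0797). In the integrated stress and unfolded protein list 2 of 31 genes were called higher (6.45%, near the 6.32% of all genes), the mTOR inhibitor DDIT4 (1.42 ± 0.21, adjusted p = 0.00888) and PHGDH, the first enzyme of serine synthesis (0.85 ± 0.18, adjusted p = 0.0323, and 0.56 without number 1). Without number 1 this list had 2 genes higher and 2 lower with a median of -0.04, and without number 3 it had 4 higher and 1 lower. The part of the first arrays' state in these differences was not tested.

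**Figure D5:**
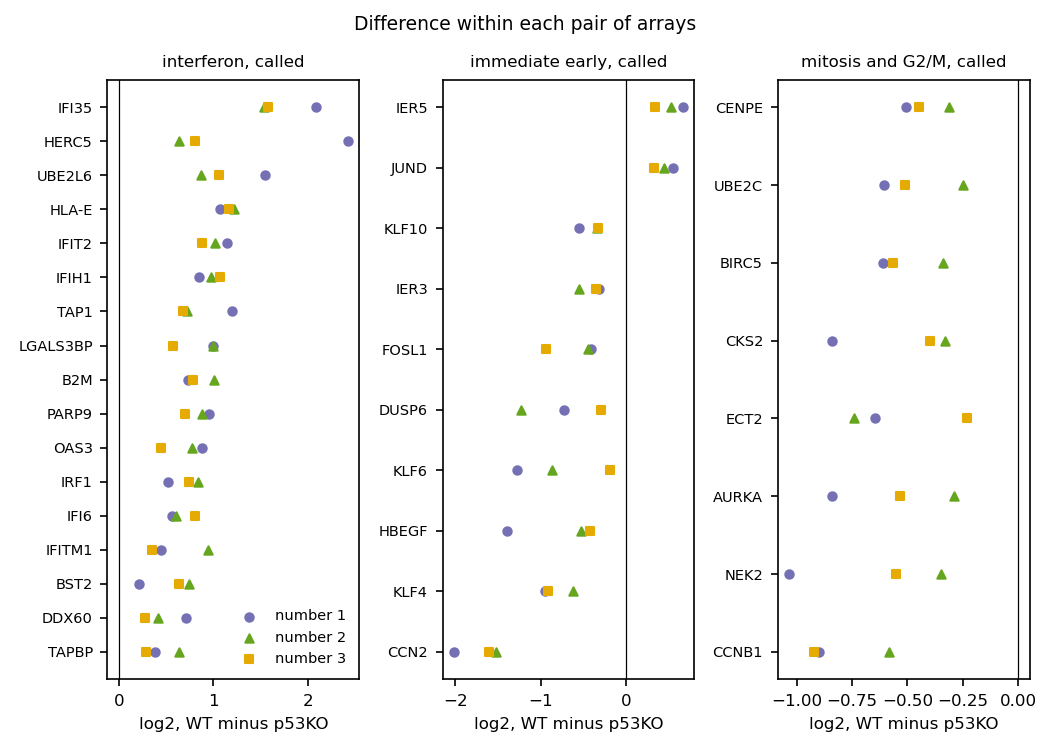
Log2 difference, WT minus p53KO, within each of the 3 pairs of arrays for the called members of the interferon (left), immediate early (middle) and mitotic (right) lists. All 17 interferon genes lie above 0 and all 8 mitotic genes below 0 in each pair, and pair number 1 lies apart in HERC5, HBEGF and NEK2.

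Among intestinal stem cell and Wnt genes, 5 of 16 were called lower in WT (31.2%, against 4.25% of all genes). PROM1 alone was called higher, and 5, 3 and 3 genes were called lower without number 1, 2 and 3. AXIN2, a feedback inhibitor and common readout of Wnt signalling, read 6.81, 8.08 and 8.21 in WT and 8.34, 8.65 and 8.77 in p53KO. The difference was -0.89 ± 0.19 (adjusted p = 0.0336), and -0.56 without number 1. DKK1, a secreted Wnt inhibitor, differed by -0.66 ± 0.10 (adjusted p = 0.0103) and WNT16 as given above. The receptor FZD7 at -0.37 and the inhibitor NKD1 at -0.51 complete the 5 and were named after their values were seen. Their adjusted p were 0.0476 and 0.0364, and no WT value overlapped a p53KO value in either.

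Of 20 tested colon epithelial markers, 6 were called higher in WT (30%, against 6.32% of all genes) and 1 lower (5%, near the 4.25% of all genes). Beside EHF the largest were the claudin CLDN3 (0.91 ± 0.10, adjusted p = 0.00275), the ETS factor ELF3 (0.81 ± 0.12, adjusted p = 0.00868) and CEACAM1, an adhesion molecule (1.09 ± 0.25, adjusted p = 0.0369, at least 1.63-fold with no p53KO array detecting it, and 0.66 without number 1). The summed level of the list was 30930 to 36950 intensity units in WT and 28530 to 34440 in p53KO (exact permutation test, two-sided, p = 0.6), so the groups overlap. Of 9 tested mesenchymal and migration genes 2 were called higher (22.2%, against 6.32% of all genes), ACTA2 and S100A4. The median of the list was -0.08, and 5 of the 7 others were below 0. Among them were SNAI1, at a mean of 6.63 in WT and 7.39 in p53KO, and TAGLN, at 6.76 and 7.11. S100A4, a calcium-binding protein linked to motility, read 11.73, 11.99 and 12.48 in WT and 10.06, 9.95 and 10.35 in p53KO, a difference of 1.94 ± 0.12 (adjusted p = 0.000359), and 2.14 by a second probe. The summed mesenchymal level was 5101 to 6789 in WT and 2080 to 2567 in p53KO, but without S100A4 it was 1088 to 1732 and 1014 to 1514, which overlap. The first of these sums and that of other cell types, 531.2 to 902.6 in WT and 408.9 to 500.9 in p53KO, did not overlap (exact permutation test, two-sided, p = 0.1 for both, the smallest possible). ACTA2 is in both lists, and the other marker of other cell types called was CD68 (0.42 ± 0.10, adjusted p = 0.0368), lost without any of the 3 numbers (0.0665, 0.127 and 0.102). Of 31 mesenchymal genes on the array 17, such as FN1, CDH2, ZEB1 and ZEB2, were detected on no array, and 9, among them SNAI1, COL1A1, COL5A1 and TAGLN, on all 6. VIM was detected on 2 arrays of each genotype and TWIST1 on 2 WT arrays and no p53KO array. Fewer cells of a kind and less RNA per cell cannot be told apart in such bulk samples.

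Of 24 genes of glucose uptake and glycolysis 4 were called (16.7%), of 18 hypoxia genes 3 (16.7%) and of 18 cholesterol synthesis genes 4 (22.2%), against 10.6% of all genes. SLC2A3, the transporter GLUT3, read 4.79, 5.55 and 5.22 in WT and 7.67, 7.13 and 6.91 in p53KO, a difference of -2.05 ± 0.24 (adjusted p = 0.00388). SLC2A1, the transporter GLUT1, read 8.04, 6.50 and 6.52 against 8.78, 7.74 and 7.77, a difference of -1.08 ± 0.13 (adjusted p = 0.00413). WT was lower in each pair for both. The other called genes of this list were hexokinase HK1 (0.47, lost without number 2 or 3) and transketolase TKT (0.44, lost without any of the 3), both higher. For SLC2A1 the change from untreated cells was called at 1, 10 and 100 nM, and its genotype difference at 10 nM was 0.39.

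Of 18 hypoxia genes, the peptide hormone ADM (0.91 ± 0.10, adjusted p = 0.00268) and the carbonic anhydrase CA12 (0.93 ± 0.10, adjusted p = 0.00275) were higher in WT and SLC2A3 lower. ADM also showed the shift of the first arrays, at 12.91, 11.07 and 10.89 in WT and 12.09, 10.09 and 9.97 in p53KO. Of 18 cholesterol synthesis genes 2 were higher, the reductase TM7SF2 (0.89) and the epoxidase SQLE (0.85, and 0.56 without number 1 with an adjusted p of 0.0592). Another 2 were lower, the synthase HMGCS1 (-0.63) and the isomerase IDI1 (-0.61, and -0.39 without number 3 with an adjusted p of 0.176, and lost without number 1 at 0.0674). Of 58 ribosomal protein genes 5 were called lower (8.62%, against 4.25% of all genes) and 0 higher. Without number 1, 2 and 3 the genes called lower were 3, 5 and 2. The largest of the 5 differences were in RPL37A (-0.72 ± 0.10), RPL23A (-0.60 ± 0.10), RPL28 (-0.53 ± 0.11) and RPL41 (-0.51 ± 0.10). These genes have many processed copies in the genome, and the sources used here do not state which copies a probe reads. RPL28 was lost without number 1 or 3 (adjusted p = 0.064 and 0.0819), and RPL41 without number 3 (0.0519). Of 35 ribosome biogenesis genes only 2 were called (5.71%, below the 10.6% of all genes). NOLC1, a nucleolar phosphoprotein, was higher (1.04 ± 0.18, adjusted p = 0.0156). TAF1A, a subunit of the RNA polymerase I factor SL1, was lower (-0.46 ± 0.10, adjusted p = 0.0322, lost without any of the 3 numbers).

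Beyond the lists, many of the differences called in untreated cells were called again in the treated arrays. The treated arrays hold the same 2 genotypes, and the number of knockout clones is not stated. Loss of p53 and differences between clones therefore cannot be told apart in either. Of the 674 genes higher in untreated WT cells, 539 (80%) were called higher at 1 nM, 531 (78.8%) at 10 nM and 100 (14.8%) at 100 nM. Of all genes, 17.2%, 22.1% and 1.23% were called higher at these doses. Of the 453 lower, 335 (74%), 336 (74.2%) and 49 (10.8%) were called lower, against 16.5%, 22.7% and 0.741% of all genes. At 100 nM 1.97% of genes were called in all, and a call lost there is not shown to be a smaller difference. With nutlin, limma called 0 genes on the arrays as labelled, with 11 at an unadjusted p under 0.05. The arrays labelled nutlin number 3 go against their labels in PROM1, with 4.36 in the array labelled WT and 9.07 in the array labelled p53KO. Without them 2375 genes were called (22.3%). Of the 674, 522 (77.4%) were then called higher, against 11.6% of all genes. Of the 453, 287 (63.4%) were called lower, against 10.7% of all genes.

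PROM1 was detected on every WT array and no p53KO array at 1, 10 and 100 nM. The bounds were at least 13.4, 11.7 and 8.51-fold, so its differences between these states cannot be sized. The nutlin arrays of number 3 go against their labels in PROM1 itself, so the nutlin arrays left without them are no separate check of PROM1. On the nutlin arrays as labelled PROM1 differed by 1.53 ± 1.99 and was not called. The mean NRIP1 level in WT was 8.35 untreated and 6.39 at 100 nM, and in p53KO 4.69 on arrays that did not detect it and 5.49 with 2 of 3 arrays detecting it. EHF was 7.64 and 6.22 in WT, and 4.59, not detected, and 5.04, with 1 of 3 detecting it, in p53KO. For both genes the interaction was called at 100 nM (adjusted p = 1.68e-05 and 0.00523), and its size is not exact because the untreated p53KO signal was not above background. Both are among the 12 highest by the untreated difference, which the interaction subtracts. That choice by itself favours a smaller difference in treated cells. Of 8 named genes with their called change listed at 100 nM, 8, 7 and 8 were called without number 1, 2 and 3. Over all genes the change was called in 502 genes at 1 nM (4.71%), 966 at 10 nM (9.06%) and 168 at 100 nM (1.58%), and in 110, 207 and 76 of the 1127 genes called in untreated cells. Leaving out 1 number moved these counts to between 0 and 616, 22 and 613, and 36 and 267.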

How the data were processed

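Total RNA of 30 arrays was read on Illumina bead arrays, and the 6 untreated arrays were compared by the replicate numbers in their labels. Each deposited intensity is the mean signal of a probe's beads, and each deposited detection p-value compares it with negative controls, per the file headers. The deposited tables also give the number of beads, with a median of 42 a probe. BeadStudio is named in the submitters' processing notes, without a version. The sources used here do not say how the authors' processed table was normalised. The tables hold 26 array columns of other samples, which were not used.

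From the raw intensities, limma 3.58.1 (R 4.3.3) applied neqc over 30 arrays, with an offset of 16. Probes with a detection p under 0.01 on all 3 arrays of at least 1 genotype were kept, 11793 of 22177, and the brightest probe stood for each of 10666 genes, 541 of them without a symbol. Of all probes 21101 had 1 symbol and 1076 none. The log2 values, computed from the authors' intensities, were fitted with genotype and the replicate number as a block, and p-values were adjusted by Benjamini-Hochberg over all genes. Same-numbered arrays deviated together (r = 0.788, 0.609 and 0.653 over genes), so the numbers were taken as pairs, although numbers 2 and 3, which share a slide, also correlated across numbers (r up to 0.501). "At least" folds are set against the lowest detected signal. Treated arrays had the same fit, in which 3 pairs (number 2 at 10 and 100 nM, number 3 with nutlin) cross slides. On simulated data with 10666 genes the fit recovered 100 of 100 changes of 1 and 79 of 100 of 0.5 on the log2 scale, and called 17 unchanged genes. The simulated noise was independent for each gene and array, with pair effects as the fit assumes. The simulation therefore checks the fit as coded and cannot speak to errors that arrays or genes share. The number of arrays limits the precision.

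Genes were named by rule: the 12 highest and 12 lowest non-overlapping called genes, up to 4 called members of each list, up to 2 uncalled members of each p53 list and a set of genes given by name. The members, lists and rules were chosen with earlier results of these data known. Alternatives covered pairing, slide, normalisation, background, filters, probes, source table and left-out replicates.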

Additional observations from a re-analysis of the deposited data

Results flagged for a closer look

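For 46 named genes the WT minus p53KO difference in actinomycin D differed from that in untreated cells by a test of the difference itself (limma interaction, adjusted p under 0.05). Values are that change on the log2 scale, and no cause was tested. Each gene is listed only at the dose with its smallest adjusted p, and the adjusted p-values do not allow for that choice. The groups are therefore not specific to a dose: CDKN1A (1.54) and MCM5 (-1.35), listed at 10 nM, were among those also called at 1 nM. Listed at 1 nM, the change was positive in DDIT4 (1.60), TNFRSF10B (0.86), ADM (0.66) and BAX (0.60). At 10 nM it was positive in CEACAM1 (2.53), TP53I3 (2.48), SESN1 (2.26), GDF15 (2.25), TP53INP1 (2.14), TIGAR (1.66), PIDD1 (1.57), ZMAT3 (1.56), FAS (1.47), SLC2A1 (1.46), APOBEC3H (1.44), CDKN1A (1.42), ZBED2 (1.41), KANK3 (1.34), ACTA2 (1.28), TM7SF2 (1.20), RRM2B (1.17), DGKA (1.12), CYFIP2 (1.10), HBEGF (0.96), DDB2 (0.75) and DKK1 (0.73). At 10 nM it was negative in DIAPH2 (-1.83), NEK2 (-1.50), MCM5 (-1.49), ODAD2 (-1.48), DPYSL3 (-1.47), PLK1 (-1.46), AURKA (-1.32), CCNB1 (-1.25), TK1 (-1.15), PHGDH (-0.97), DDIT4L (-0.72) and IFI35 (-0.66). At 100 nM it was positive in WNT16 (1.78), CCN2 (1.77) and SGK1 (1.33) and negative in NRIP1 (-2.76), ADGRF1 (-2.10), RGS2 (-1.89), EHF (-1.87) and GAGE12J (-1.59). 

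In 8 of these genes, NRIP1, EHF, DIAPH2, APOBEC3H, CEACAM1, FAS, GAGE12J and WNT16, no untreated array of 1 genotype detected the probe, so the size of the change is not exact. Genes named for a large untreated difference are favoured by that choice to show a smaller one in treated cells. All 46 kept their sign without each replicate number. The 4 genes at 1 nM were called in 2, 0 and 0 cases without number 1, 2 and 3, the 34 at 10 nM in 31, 3 and 4, and the 8 at 100 nM in 8, 7 and 8.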

How the results depend on the processing

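The 1127 untreated calls became 133 with no block, and 1355 and 1007 with slide as a fixed or random block in place of replicate number. With all 30 arrays they became 151 with no block and 34 with the replicate block, and 1691 with that block and no nutlin arrays. They became 561 with no detection filter and 806 to 930 without 1 pair. The share higher in WT was 59.8%, against 70.7% without the block, 44.1% with all 30 arrays and the block, and 53.4% with 75th-percentile scaling. The authors' processed table gave 0 calls by limma, with 2421 at an unadjusted p under 0.05, and 846 of 8148 genes with probes above 16 on all 6 arrays, an alternative chosen after seeing the data. The other settings gave 961 to 1416. Of 76 called named genes 60 were called without each pair, and over 21 settings 1205 of 1555 values stayed called, none changing sign. Without 1 replicate TIGAR ran from -0.36 to 0.031 (positive without replicate 2) and FOS from -0.56 to 0.52 (positive without replicate 1), and neither was called.

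The following fits were added after seeing the data. Calls at 1 nM (3593) became 2008 with no replicate block and 765 to 3202 without 1 replicate. Those at 100 nM (210) became 97 with no block and 10 to 45 without 1 replicate. Nutlin went from 0 to 2375 without replicate 3. The interaction counts of 502, 966 and 168 became 18, 135 and 31 with no block, and without 1 replicate ran from 0 to 616, 22 to 613 and 36 to 267. At 1 nM, 1396 genes had an unadjusted p under 0.05 without replicate 3. The causes were not tested. With 3 arrays a genotype and 2 residual degrees of freedom, small differences and probes near background could not be resolved.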

Other observations

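Genes were also ordered along the chromosomes and read in windows of 25 neighbouring tested genes, chosen after their values were seen and given without a test. On chromosome 12, the window from ING4 to FOXJ2 held 7 genes called lower in WT, P3H3, CDCA3, USP5, LRRC23, ATN1, PHB2 and SLC2A3, and 1 called higher, C1RL. Its median was -0.20 in untreated cells, -0.24, -0.30 and -0.35 at 1, 10 and 100 nM actinomycin D, and -0.31 with nutlin without number 3. On chromosome 19, the window from MRPL34 to FKBP8 held 8 genes called higher, ANO8, BST2, SLC27A1, IFI30, RAB3A, JUND, GDF15 and ISYNA1, with a median of 0.18. Over 9540 windows the medians ran from -0.24 to 0.27.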
